A study of Mus musculus with 4 samples.

Results

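The Reg lectins and the non-defensin antimicrobial proteins of the gut epithelium were followed across 4 RNA sequencing libraries. The members were chosen by name from the gene symbols of the table and number 10 of 24444 genes. They are the C-type lectins Reg1, Reg3a, Reg3b, Reg3g and Reg4, the secreted enzymes Lyz1, Ang4, Mmp7 and Pla2g2a, and the intelectin Itln1. All 10 were among the 15246 genes with enough counts to be tested, and none dropped out for low values.

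These proteins are released into the gut lumen, where they keep bacteria away from the epithelial surface. Reg3b and Reg3g are small lectins that bind bacterial cell walls and kill bacteria, and their transcription in epithelial cells is known to be driven by microbial signals through MyD88 and by the cytokine IL-22 through STAT3. Lyz1, Ang4, Mmp7, Pla2g2a and Itln1 are known products of Paneth cells, the secretory cells at the base of small intestinal crypts, whereas Reg4 is best known from other secretory cells of the gut and Reg1 also from the acinar pancreas.

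Libraries were made from total RNA of tumours of CT26, a colon carcinoma line of BALB/c mice, taken at a volume of about 70 mm3. In 3 of them the cells carried a short hairpin RNA against Ppp2r1a, which encodes the PP2A scaffold subunit (knockdown replicates 1, 2 and 3), and in 1 a scrambled hairpin (control). The paper lists more than 1 hairpin against mouse Ppp2r1a, and the labels do not say which one each knockdown library carried. All came from the same line and strain label, the labels name no separate clones, and they do not say whether the tumours grew in separate mice, so the p-values cover the spread among the libraries and may miss that among mice. Knockdown replicate 3 and the control carry the same number 3 in their descriptions, whose meaning the labels do not give, and of all pairs of libraries these were the most alike (chi-square per degree of freedom 91.1). The study used these libraries to predict neoantigens, and its methods describe no comparison of gene levels between them.

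With a single control, the error of every comparison came from the knockdown libraries alone (2 residual degrees of freedom), and a feature of the control tumour cannot be told apart from an effect of the hairpin. Total expected counts ranged from 24726440 to 28950004 per library. Levels are given in TPM, the share of a library's transcripts after correction for gene length, and values in a row follow knockdown replicates 1, 2 and 3. Ppp2r1a itself was at 40.2, 29.8 and 22.3 TPM with its hairpin and at 75.1 TPM without it. It was therefore lower in all 3 knockdown libraries, although its log2 fold change of -1.62 (SE 0.25) did not pass the test across all genes (edgeR quasi-likelihood, Benjamini-Hochberg adjusted p = 0.767).

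The libraries held abundant transcripts of normal gut epithelium, which the label of a carcinoma line does not name, and the share of RNA from tumour cells was not determined. In its tumour experiments the paper placed CT26 cells under the skin of the flank, outside the gut. How the tissue of these libraries was dissected is not given, and the source of the gut transcripts was not determined. The 17 listed small intestinal enterocyte markers made up 3.14, 7.85 and 13.2% of knockdown TPM and 12.2% of control TPM. Markers of large bowel epithelium (8 genes) summed to 2382, 1043 and 186.5 TPM compared to 282.5 TPM, those of neutrophils (10 genes) to 1154, 903 and 18.9 TPM compared to 3.97 TPM, and those of macrophages (9 genes) to 1475, 955.5 and 289.7 TPM compared to 290.5 TPM. Of the macrophage sums, Lyz2 alone made up 822, 633 and 132 TPM compared to 137 TPM. Its level is uncertain because of its near-identical copy Lyz1. Knockdown replicates 1 and 2 thus stood apart from knockdown replicate 3 and the control in all of these lists, and member values that follow are given library by library for that reason. Acinar cells of the pancreas were barely represented: of 14 acinar markers only Cela1 exceeded 1 TPM in any library, and Prss1, Cela3b, Amy2b, Ptf1a and Rbpjl were at 0 in all 4. In bulk RNA, fewer cells of a type and less RNA per cell cannot be told apart.

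The 10 members split by gene rather than moving as a group. Reg3b and Reg3g were several-fold higher in every knockdown library than in the control, Pla2g2a was near its counting limit in the control and higher in every knockdown library, Reg1 was among the most abundant transcripts of the control and far lower in every knockdown library, and Reg4, Lyz1 and Itln1 differed little or in both directions. None of the 10 passed the test with all 4 libraries, and 0.0% of all genes tested did (edgeR, adjusted p under 0.05). Before adjustment 554 genes were under 0.05, and of the members only Pla2g2a was among them.

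By direction, 4 of 10 members (Reg3b, Reg3g, Mmp7 and Pla2g2a) were above the control in all 3 knockdown libraries on counts scaled to TMM library totals (CPM), where 31.8% of all genes tested were. Likewise 3 of 10 (Reg1, Reg3a and Reg4) were below it in all 3, where 27.7% of all genes were. Both shares lie near the background, so the number of members on either side is not a result about them. The median log2 fold change was 0.78 over the members and 0.06 over all genes tested.

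Differences of more than 2-fold were counted in each knockdown library. In knockdown replicate 1, 5 members were more than 2-fold above the control (Reg3b, Reg3g, Ang4, Mmp7 and Pla2g2a) beside 24.6% of all genes, and 3 more than 2-fold below it (Reg1, Reg3a and Itln1) beside 16.9%. In knockdown replicate 2, the counts were 5 above (Reg3b, Reg3g, Lyz1, Mmp7 and Pla2g2a) beside 15.7% and 2 below (Reg1 and Reg3a) beside 7.44%. In knockdown replicate 3, the counts were 3 above (Reg3b, Reg3g and Pla2g2a) beside 6.46% and 1 below (Reg1) beside 5.63%. Reg3b, Reg3g and Pla2g2a above and Reg1 below were the 4 members past 2-fold in the same direction in all 3 knockdown libraries.

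**Figure D1:**
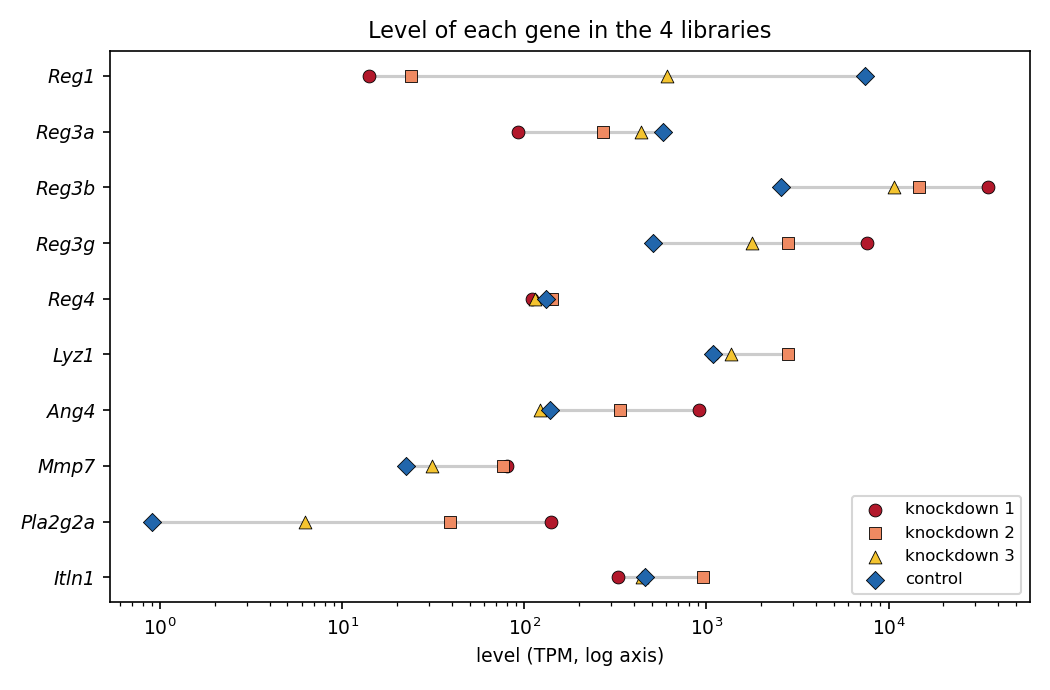
Level of each of the 10 genes in TPM (log axis) in knockdown replicates 1, 2 and 3 and the control, 1 point per library, with a grey line over the range. The control point is lowest for Reg3b, Reg3g, Mmp7, Pla2g2a and, by little, Lyz1, and highest for Reg1 and Reg3a. For Lyz1 the point of knockdown replicate 1 (1084 TPM) is hidden behind that of the control (1080.2 TPM).

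Of the 5 lectins, Reg3b, Reg3g, Reg3a and Reg1 lie in 1 cluster on chromosome 6, whereas Reg4 is a lone gene at chr3:98222156-98236748 (GRCm38 annotation, which was not taken from the table). The cluster holds 6 genes over 98216 bases in the order Reg3b, Reg3d, Reg3a, Reg2, Reg1 and Reg3g (chr6:78370657-78468872). Reg3b and Reg3g, the pair that differed most alike from the control, therefore sit at opposite ends of the cluster, with Reg3a and Reg1 between them. Their start regions are printed because the neighbours went opposite ways: each window runs from 250 bases before to 50 bases after the RefSeq gene start on the strand of the gene (GRCm38.p6), and capitals mark the longest run shared with the Reg3b window (for Reg3b, with Reg3g).
Reg3b (chr6:78370635-78370934, plus strand): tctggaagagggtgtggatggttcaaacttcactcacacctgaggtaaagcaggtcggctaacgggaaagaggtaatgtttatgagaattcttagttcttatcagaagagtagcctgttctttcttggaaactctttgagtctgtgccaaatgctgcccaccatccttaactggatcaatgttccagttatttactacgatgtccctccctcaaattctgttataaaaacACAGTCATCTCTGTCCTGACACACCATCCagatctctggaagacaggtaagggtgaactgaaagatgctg
Reg3g (chr6:78468825-78469124, minus strand): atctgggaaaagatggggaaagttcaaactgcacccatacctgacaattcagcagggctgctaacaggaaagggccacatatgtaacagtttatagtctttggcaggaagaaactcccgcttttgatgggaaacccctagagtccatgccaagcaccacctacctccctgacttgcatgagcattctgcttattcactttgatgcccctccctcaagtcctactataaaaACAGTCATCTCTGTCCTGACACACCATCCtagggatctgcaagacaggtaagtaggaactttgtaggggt
Reg3a (chr6:78380459-78380758, plus strand): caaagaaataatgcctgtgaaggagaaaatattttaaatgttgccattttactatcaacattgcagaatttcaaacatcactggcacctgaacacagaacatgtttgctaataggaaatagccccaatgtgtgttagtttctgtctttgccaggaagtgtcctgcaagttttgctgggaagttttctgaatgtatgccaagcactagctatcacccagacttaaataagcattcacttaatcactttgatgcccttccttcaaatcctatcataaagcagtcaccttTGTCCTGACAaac
Reg1 (chr6:78425733-78426032, plus strand): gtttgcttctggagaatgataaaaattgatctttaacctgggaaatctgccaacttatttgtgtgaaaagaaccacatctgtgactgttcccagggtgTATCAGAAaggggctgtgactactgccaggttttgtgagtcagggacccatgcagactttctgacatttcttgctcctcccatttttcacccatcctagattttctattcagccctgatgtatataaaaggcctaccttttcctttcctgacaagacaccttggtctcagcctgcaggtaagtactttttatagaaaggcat

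The Reg3b and Reg3g windows were 69.0% identical and shared a run of 29 bases that begins 20 bases before the gene start in both. Reg3b shared a run of 10 bases with Reg3a at 49.9% identity, and 8 bases with Reg1 at 52.6% identity. The run shared with Reg3a begins at -9 in Reg3b and at 37 in Reg3a. Reg3g shared 14 bases with Reg3a at 55.2% identity and 10 bases with Reg1 at 53.6% identity. Identity and runs between unrelated windows were not computed, so these values do not show how alike or unlike the windows are. The letters TTCNNNGAA, the core that STAT factors are known to bind, were found in the windows of Reg3b (at -129) and Ang4 (at -192), that is in 2 of the 9 members with a window in the RefSeq table and in 8.3% of all 32851 windows. The letters TATAAA, searched on both strands, were in the windows of Reg1, Reg3b, Reg3g and Mmp7, 4 of 9 members, and in 13.6% of all windows. Such matches are letters in a window and not measured binding.

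Reg3b, a bactericidal lectin, measured 35165, 14782 and 10755 TPM with the Ppp2r1a hairpin and 2577 TPM without it. Every knockdown library lay above the control, by 13.6, 5.73 and 4.17-fold on TPM. The log2 ratios on TMM-scaled CPM were 3.22, 2.24 and 2.01. Knockdown replicate 1 was the highest by a wide margin. There Reg3b was the most abundant transcript of the whole library (rank 1 by TPM), compared to rank 38 in the control. The knockdown mean was 20234 ± 13087 TPM (SD, n = 3). In edgeR its log2 fold change was 2.59 (SE 1.91, adjusted p = 0.767).

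Reg3g, its paralogue that targets Gram-positive bacteria, measured 7579, 2795 and 1786 TPM, compared to a control level of 506 TPM. The order of the libraries was that of Reg3b, and the control again lay outside the range of the knockdown libraries. These exceeded it by 15.0, 5.52 and 3.53-fold on TPM, and by log2 ratios of 3.35, 2.19 and 1.77 on TMM-scaled CPM. The fit by edgeR gave 2.60 on the log2 scale (SE 1.05, adjusted p = 0.767), and 1.99 (SE 0.61) without knockdown replicate 1. Within each library Reg3g stood at a nearly constant share of Reg3b, with TPM ratios of 0.215, 0.189, 0.166 and 0.196 in knockdown replicates 1, 2 and 3 and the control. That ratio varied only 1.30-fold while each gene varied over 10-fold, and the expected counts of both genes were whole numbers in all 4 libraries, so there was no sign of reads divided between these paralogues.

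Reg3b and Reg3g were higher where neutrophil, macrophage and large bowel markers were also higher, but not in proportion to them. Of the neutrophil markers, 8 of 8 tested were above the control in all 3 knockdown libraries (31.8% of all genes tested were). Of these 8, 3 (S100a8, S100a9 and Mmp8) had no control count and passed the filter only through the knockdown libraries. Csf3r, with 7 control counts, did so too, so 8 of 8 cannot be weighed against 31.8%. Among the markers not tested, Elane was at 0 in all 4 libraries and Mpo had 1 count, in the control. The summed levels were 18.9 to 1154 TPM compared to 3.97 TPM. In knockdown replicate 3, Reg3b was 4.17-fold and Reg3g 3.53-fold above the control. There the summed neutrophil markers were at 18.9 TPM compared to 3.97 TPM in the control. The macrophage sum was 289.7 TPM compared to 290.5 TPM, and the large bowel sum 186.5 TPM compared to 282.5 TPM. The part of these cell types in the difference was not tested further.

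The call for both genes depended on the test. In DESeq2, which called 1.29% of genes (178 of 13768 with an adjusted p), Reg3b passed with a log2 fold change of 2.55 (adjusted p = 0.0132) and Reg3g with 2.56 (adjusted p = 0.0462). Neither passed in any fit of edgeR or limma, those with a knockdown library left out included. Over all alternatives the adjusted p ranged from 0.0132 to 1 for Reg3b and from 0.0462 to 1 for Reg3g.

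Reg1, a lectin also known as lithostathine, showed the opposite pattern. Its level was 7437 TPM in the control, where it was the transcript of rank 12, and 14.1, 23.9 and 606 TPM in the knockdown series. The control was 527, 312 and 12.3-fold above knockdown replicates 1, 2 and 3. The knockdown libraries did not reach the control but differed by 42.9-fold among themselves, since knockdown replicate 3 was far above the other two. Over all libraries edgeR gave a log2 fold change of -5.18 (SE 2.20, adjusted p = 0.767). Without knockdown replicate 3, where 8.05% of all genes passed, Reg1 passed with a log2 fold change of -8.99 (adjusted p = 0.000789, edgeR). It missed the threshold in every other fit run, and over all alternatives its adjusted p ranged from 0.000789 to 0.991.

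Reg1 was lowest in knockdown replicates 1 and 2, where the summed enterocyte markers (3.14 and 7.85% of TPM) were also below the control (12.2%). All 17 enterocyte markers had a log2 fold change below 0, with a median of -0.96, and 9 of 17 were below the control in all 3 knockdown libraries, where 27.7% of all genes tested were. Apoa4, an apolipoprotein of absorptive enterocytes, is 1 of these 17 markers. Relative to Apoa4, Reg1 stood at 0.0024, 0.0021, 0.0184 and 0.208 in knockdown replicates 1, 2 and 3 and the control. In knockdown replicate 3, whose summed enterocyte markers (13.2% of TPM) were at least those of the control (12.2%), Reg1 was 12.3-fold below the control. The part of the enterocytes in the level of Reg1 was not tested. Genes of the acinar pancreas, a known source of Reg1, were at or near 0 apart from Cela1, which was lowest in the control (13.2 TPM).

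Reg3a measured 92.5, 272 and 439 TPM with the hairpin and 579.8 TPM without it. It had the same order of libraries as Reg1, in a far narrower range, and knockdown replicate 3 was only 1.32-fold below the control. Its log2 fold change of -1.29 (SE 0.96) did not pass (edgeR, adjusted p = 0.767) and was -2.01 (SE 0.60) without knockdown replicate 3.

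Reg4, a lectin of secretory cells of the gut, hardly varied. Levels were 110.3, 141 and 114 TPM with the hairpin and 132 TPM without it, so the groups overlapped on this scale. On TMM-scaled CPM all 3 knockdown libraries were below the control, with log2 ratios of -0.81, -0.18 and -0.26, and knockdown replicate 2 changed sides with the scaling. In edgeR the log2 fold change of Reg4 was -0.39 (SE 0.35, adjusted p = 0.767). Relative to Epcam, an adhesion protein of all gut epithelium picked after its values were seen, Reg4 stood at 0.0669, 0.0725, 0.0627 and 0.0694, a range of 1.16-fold.

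Together the 5 lectins summed to 42961, 18013 and 13699 TPM with the hairpin and 11232 TPM without it, and they made up most of the TPM of the 10 members in each library. Which lectin led differed: Reg3b held 77.3, 66.5 and 68.7% of the members' TPM in knockdown replicates 1, 2 and 3 but 19.9% in the control, where Reg1 held 57.5%. In knockdown replicates 1 and 2, Reg1 held 0.03 and 0.11%. The TPM ratio of Reg1 to Reg3b was 2.89 in the control, 0.0563 in knockdown replicate 3, 0.0016 in knockdown replicate 2 and 0.0004 in knockdown replicate 1.

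**Figure D2:**
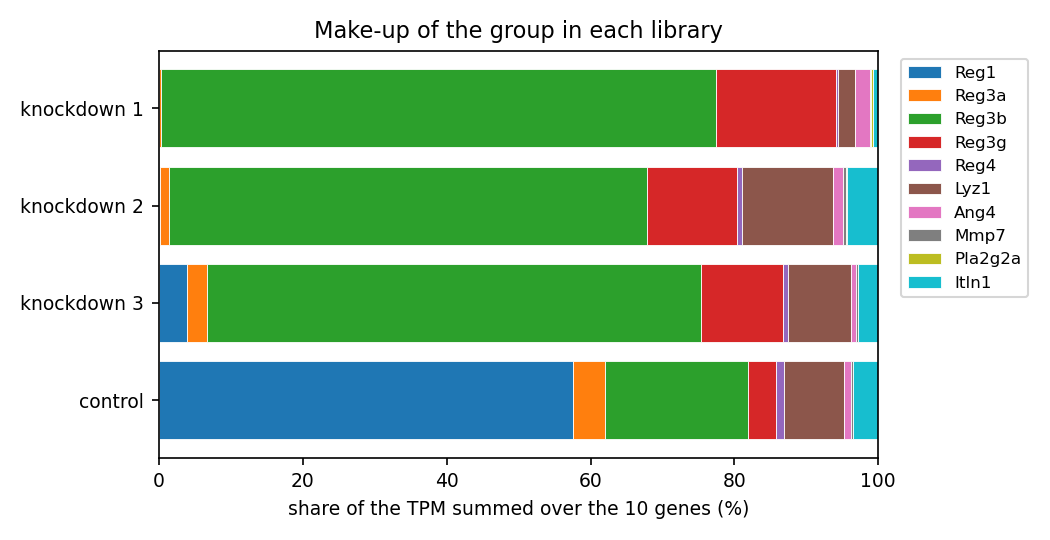
Share of each gene in the TPM summed over the 10 genes (%), 1 bar per library. Reg3b (green) fills most of the bars of the 3 knockdown libraries (77.3, 66.5 and 68.7%), and Reg1 (blue) most of the control bar (57.5%).

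Of the secreted enzymes, Pla2g2a had the largest difference. It encodes the group IIA secreted phospholipase A2, which hydrolyses bacterial membranes, and lies at chr4:138831857-138835186, where the annotation, built on the C57BL/6 genome, calls it a polymorphic pseudogene. That strain is known to carry a disrupted copy, whereas BALB/c, the strain of these samples, is known to carry an intact one. Levels of Pla2g2a were 140.4, 39.3 and 6.21 TPM with the hairpin and 0.90 TPM without it.

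Behind these levels lay 1538, 473 and 73 counts compared to 11. On TMM-scaled totals the knockdown libraries were 107-fold (exact 95% interval 59.4 to 214), 36.2-fold (20.02 to 72.9) and 6.70-fold (3.53 to 14.01) above the control, intervals that cover counting error only. Even the lowest knockdown library was thus above the control beyond counting error, while the knockdown libraries spread over 22.6-fold among themselves. Its log2 fold change was the largest of the 10 genes at 5.63 (SE 2.09, edgeR adjusted p = 0.767).

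Pla2g2a was called in more of the other fits than any other member. It passed in DESeq2 (log2 fold change 5.59, adjusted p = 0.0038), in edgeR without knockdown replicate 3 (6.14, adjusted p = 0.000749) and in edgeR without knockdown replicate 2 (5.80, adjusted p = 2.75e-05), a fit in which 1.1% of all genes passed and in which the spread of each gene was set by genes of like abundance and not by its own replicates. Without knockdown replicate 1 it did not pass (log2 fold change 4.41, SE 1.31, adjusted p = 0.991, edgeR), and over all alternatives its adjusted p ranged from 2.75e-05 to 0.991. Knockdown replicates 1 and 2, where Pla2g2a was highest, were also the libraries with more neutrophil, macrophage and large bowel transcripts. The part of those cells in its level was not tested.

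Lyz1, the lysozyme of Paneth cells, measured 1084, 2802 and 1358 TPM, beside 1080.2 TPM in the control. Only knockdown replicate 2 stood clear of the control, and knockdown replicate 1 and the control were nearly level. For Lyz1 edgeR gave a log2 fold change of 0.43 (SE 0.88, adjusted p = 0.861). On TMM-scaled CPM, knockdown replicate 1 was below the control (log2 ratio -0.55) and the other two above it (1.10 and 0.29). Lyz1 is the only member whose expected counts were not whole, in all 4 libraries, so some of its reads were shared with another gene.

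The near-identical copy is Lyz2, the lysozyme of macrophages and neutrophils, whose gene lies next to Lyz1 on chromosome 10 (chr10:117287797-117292868 for Lyz1 and chr10:117277331-117282321 for Lyz2). The start windows of the copies were 81.9% identical, with a shared run of 86 bases. Lyz2 measured 822, 633 and 132 TPM with the hairpin and 137 TPM without it, and the ratio of Lyz2 to Lyz1 varied 7.81-fold over the libraries. How many reads the copies share was not measured, so the level of each is uncertain.

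Ang4, an RNase of Paneth cells with bactericidal activity (chr14:51763878-51773590), measured 915, 336 and 122 TPM, beside 139 TPM in the control. The groups overlapped, because knockdown replicate 3 was below the control and the other two above it. A log2 fold change of 1.29 (SE 1.01) resulted, which did not pass (edgeR, adjusted p = 0.767) and which was 0.51 (SE 0.55) without knockdown replicate 1. Although both are Paneth products, Ang4 did not keep to Lyz1: their TPM ratio was 0.844 in knockdown replicate 1 compared to 0.12, 0.0898 and 0.128 in knockdown replicates 2 and 3 and the control.

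Mmp7, matrilysin, the protease that activates alpha defensins in mouse Paneth cells (chr9:7692090-7699585), measured 80.7, 76.3 and 31.2 TPM with the hairpin and 22.45 TPM without it. All 3 knockdown libraries were above the control, knockdown replicate 3 by the least. This gave a log2 fold change of 1.14 (SE 0.52, edgeR adjusted p = 0.767).

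Itln1, an intelectin that binds microbial sugars (chr1:171518122-171535294), measured 326, 959 and 441 TPM with the hairpin and 458 TPM without it. The control lay inside the range of the knockdown libraries, and knockdown replicate 2 was the highest, as for Lyz1. Its log2 fold change was close to 0 at 0.07 (SE 0.78, edgeR adjusted p = 0.976). The ratio of Itln1 to Lyz1 was 0.301, 0.342, 0.325 and 0.424 in knockdown replicates 1, 2 and 3 and the control, a range of 1.41-fold.

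**Figure D3:**
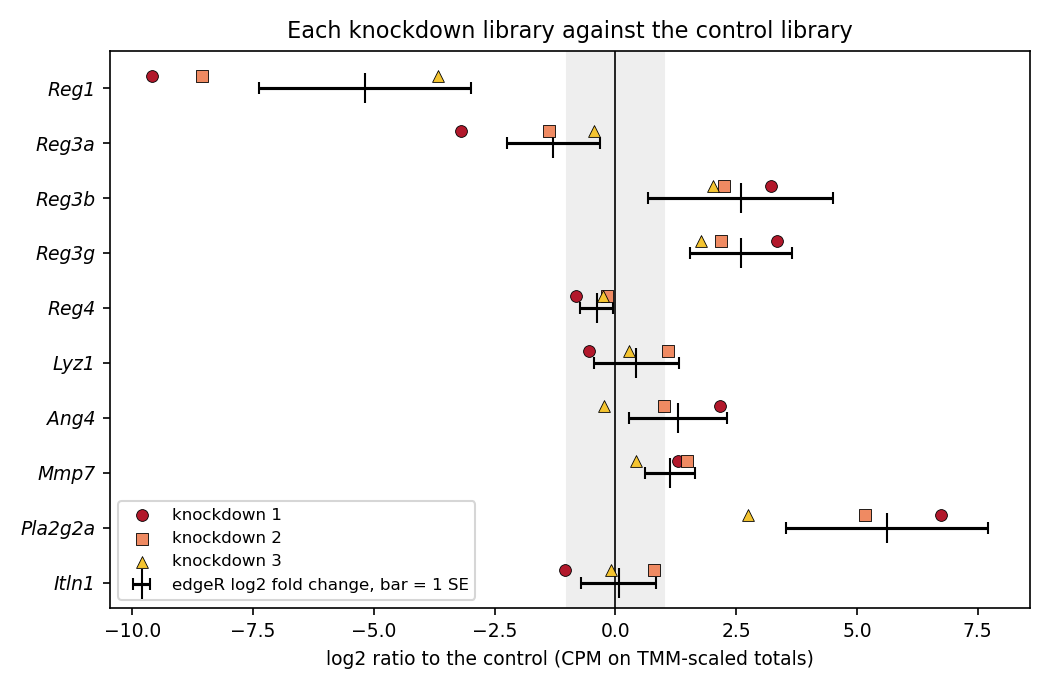
Log2 ratio of each knockdown library to the control (coloured points, CPM on TMM-scaled totals) and the edgeR log2 fold change with a bar of 1 SE (black) for each gene. The grey band marks differences of less than 2-fold. All 3 points lie right of the band for Reg3b, Reg3g and Pla2g2a and left of it for Reg1, where the points run from -9.60 to -3.67.

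The order of the levels also changed between libraries. In the control the highest member was Reg1, followed by Reg3b (2577 TPM), Lyz1 (1080.2 TPM), Reg3a (579.8 TPM), Reg3g (506 TPM) and Itln1 (458 TPM). In all 3 knockdown libraries Reg3b led. In knockdown replicate 1 it was followed by Reg3g (7579 TPM), Lyz1 (1084 TPM) and Ang4 (915 TPM), and Reg1 was the lowest of all 10. Reg3g (2795 TPM) and Lyz1 (2802 TPM) stood level in knockdown replicate 2. Pla2g2a was the lowest member in the control and in knockdown replicate 3.

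**Figure D4:**
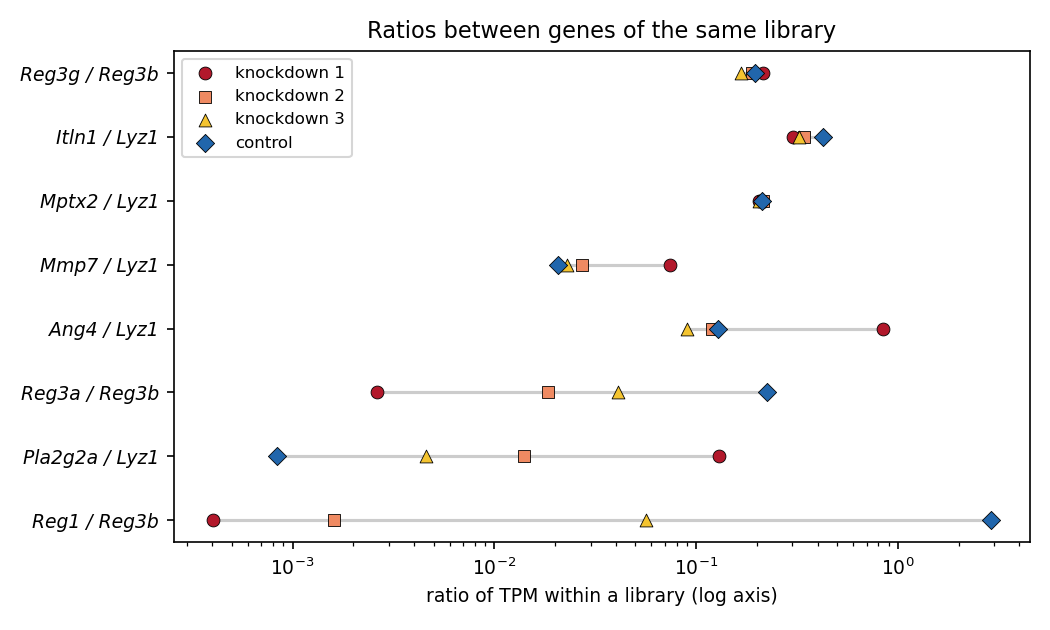
Ratio of TPM between pairs of genes within a library (log axis), 1 point per library, with a grey line over the range. Reg3g to Reg3b, Itln1 to Lyz1 and Mptx2 to Lyz1 stay within 1.30, 1.41 and 1.05-fold over the 4 libraries, whereas Reg1 to Reg3b runs from 0.0004 in knockdown replicate 1 to 2.89 in the control.

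For each member the genes with the most similar profile were found by the root mean square (rms) difference of gene-centred log2 CPM over the 4 libraries, among 10141 genes. With 4 points that share depth and tissue make-up, such likeness is a description only. For Reg3b the nearest were Paqr8 (rms 0.123), Mcpt2, a protease of mucosal mast cells (0.125), and the epithelial transcription factor Tfcp2l1 (0.150), and between the members Reg3b and Reg3g the rms was 0.135. Lpl, lipoprotein lipase, was nearest to Reg3g (0.172).

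Reg1 had few close neighbours. The nearest was Akp3, an intestinal alkaline phosphatase, at 0.93, 2.51 and 77.7 TPM with the hairpin and 1321 TPM without it (rms 0.474). The proton channel Otop3 (0.742) and the glucuronosyltransferase Ugt1a9 (1.20) followed. Akp3 thus had the same order of libraries as Reg1, with its lowest level likewise in knockdown replicate 1.

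Paneth products were among the genes nearest to Lyz1 and Itln1. For Lyz1 the nearest gene was Mptx2, a mucosal pentraxin of Paneth cells (rms 0.032), whose ratio to Lyz1 varied only 1.05-fold. Mreg (0.089) and Map3k6 (0.1035) followed. For Itln1 the nearest were Mptx1 (0.103), the alpha defensin Defa24 (0.113) and Naaladl1 (0.128). Defa24 stood at 3.20, 3.98, 3.70 and 4.03 times the TPM of Lyz1. Alpha defensins and pentraxins share reads with near-identical copies, so their own levels are uncertain.

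The other members had other neighbours. Reg3a was nearest to the anion exchanger Slc26a6 (rms 0.051), Ang4 to the lipoprotein receptor Vldlr (0.025), Mmp7 to Chic1 (0.022), Reg4 to Zfp654 (0.011) and Pla2g2a to H2-Q7, a nonclassical MHC class I gene (0.185). H2-Q7 also belongs to a family of close copies.

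Of 15 listed close relatives of the members, 14 were in the table and 9 were tested. None passed, 6 had a log2 fold change above 0 and 3 below, and the median was 1.42. Among these, 2 of 9 were above the control in all 3 knockdown libraries and 3 below it in all 3, not far from the 31.8% and 27.7% of all genes tested. The genes named by size were the secreted phospholipases Pla2g1b, Pla2g5 and Pla2g10 and the lectin Reg3d. Pla2g5 measured 19.96, 8.12 and 2.41 TPM with the hairpin and 0.46 TPM without it, the same order as Pla2g2a, and Pla2g10 at 73.0, 30.7 and 6.95 TPM compared to 6.19 TPM. Pla2g1b had 1, 46, 0 and 0 counts, so that its value rested on knockdown replicate 2. Reg3d, which lies between Reg3b and Reg3a, reached only 0.56, 0.60 and 1.21 TPM and 2.66 TPM in the control, and Reg2 had no more than 1 count in any library. Reg2 and Reg3d thus stood far below the other genes of the Reg cluster.

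Upstream, the cytokines IL-22 and IL-17 and their receptors and signalling genes were given by a list of 23 genes, all tested. None passed, 14 had a log2 fold change above 0 and 9 below, and the median was 1.00. Of the 23, 11 were above the control in all 3 knockdown libraries and 2 below it in all 3, beside 31.8% and 27.7% of all genes tested. However, 4 of the 23 had no control count and passed the filter only through the knockdown libraries. Il22, Il17f and Il6 were such genes and are among the 11, so that number cannot be weighed against 31.8%. The largest values belonged to Il17a, Il17f and Il6, none of which had a count in the control. Il17a had 55, 53 and 0 counts in knockdown replicates 1, 2 and 3, Il17f 39, 12 and 1, and Il6 24, 26 and 1. Knockdown replicate 3 thus held no more than 1 count of each. The part of these cytokines in the levels of the members was not tested.

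Il22 itself, named after its values were seen, had 25.9, 17 and 3 counts with the hairpin and 0 without it, which allows up to 3 counts. The decoy receptor Il22ra2 had the lowest log2 fold change of the list (-1.37, SE 0.74) at 0.38, 1.04, 0.50 and 1.38 TPM. Other genes of the list were also picked after their values were seen. Stat3 stood at 63.3, 61.4 and 67.0 TPM compared to 54.3 TPM, and the receptor subunit Il22ra1 at 36.1, 64.0 and 81.3 TPM compared to 72.4 TPM, in other orders than Reg3b. In the same order as Reg3b on TPM, the adaptor Myd88 stood at 45.1, 38.5 and 31.9 TPM compared to 29.7 TPM. The log2 fold change of Myd88, fitted on TMM-scaled totals, was only 0.07 (SE 0.24). Nfkbiz, a nuclear regulator of NF-kappaB targets, had the same order at 53.6, 26.5 and 17.9 TPM compared to 12.6 TPM. The cytokine receptor subunits Osmr (7.70, 3.34 and 1.10 TPM compared to 0.55 TPM) and Il6st (16.2, 10.5 and 9.05 TPM compared to 6.25 TPM) also had that order on TPM. Some other genes of the list did not, and how many of all genes tested had that order was not counted. Socs3 stood at 87.5, 41.5 and 16.7 TPM compared to 18.35 TPM, and Jak1 at 46.6, 51.4 and 60.4 TPM compared to 64.0 TPM. Of the 23 genes, 9 had a log2 fold change below 0.

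Genes of the Paneth cell lineage and its secretory apparatus, the cells known to make most of the enzymes, were listed as 20 genes, all tested. None passed, 13 had a log2 fold change above 0 and 7 below, and the median was 0.34. Of these, 7 were above the control in all 3 knockdown libraries and 5 below it in all 3, shares near the 31.8% and 27.7% of all genes tested. The receptor Ephb3, which positions Paneth cells in the crypt, stood at 6.26, 3.59 and 1.21 TPM compared to 0.61 TPM (log2 fold change 2.20, SE 0.90). The secretory transcription factor Bhlha15 stood at 9.56, 4.16 and 1.18 TPM compared to 0.85 TPM (2.13, SE 1.12), and the crypt transcription factor Sox9 at 7.77, 2.92 and 1.28 TPM compared to 1.08 TPM (1.47, SE 0.94). All 3 were highest in knockdown replicate 1, unlike Lyz1 and Itln1, which were highest in knockdown replicate 2. Egf had the lowest log2 fold change of the list (-0.92, SE 0.80) at no more than 17 counts in any library.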

How the data were processed

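The authors deposited 1 table with expected counts (estimates that may be fractional), TPM and FPKM per gene for each of 4 libraries. The deposited table also holds a fold ratio and a posterior probability (a fraction) of the authors' own comparison, which were not used. Bowtie 0.12.2 and the builds mm8 and mm10 are listed, with no role, in the submitters' processing notes. Which counter and which annotation were used is not given in the sources used here. Positions and start windows came from GENCODE and RefSeq tables of GRCm38, with a window for 9 of 10 members.

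Groups came from the titles. Members and lists were chosen with earlier results of these data known. Expected counts, of which 5.30 to 5.89% per library were fractional, were rounded. Genes were filtered by filterByExpr (minimum count 10), scaled by TMM (factors 1.29, 1.06, 0.867 and 0.844) and tested two-sided in edgeR 4.0.16 (R 4.3.3) by its quasi-likelihood method, with Benjamini-Hochberg adjustment over 15246 genes and a threshold of 0.05. The fit was tested on simulated data. No pair of libraries agreed within sampling noise. DESeq2 1.42.0 and limma 3.58.1 were alternatives. From other lists, the 3 genes with the largest and the 1 with the smallest log2 fold change were named, with near-identical copies, and for likeness the nearest genes with a mean log2 CPM of 2 or more. The symbol of 1 listed relative was not matched and is not analysed here.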

Additional observations from a re-analysis of the deposited data

How the results depend on the processing

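No paired analysis was possible because there was 1 control library, which shares a number in the labels with only 1 knockdown library (replicate 3), so the groups share fewer than 2 numbers. With all 4 libraries 0 genes passed in edgeR (554 at an unadjusted p under 0.05), and DESeq2 passed 178. Leaving out 1 knockdown library gave between 0 and 1221 genes (0 without knockdown replicate 1, 166 without 2 and 1221 without 3). The summed TPM of the members was 2.15 times the control on average (SD 1.21), and 0.73 times without Reg3b, a setting chosen after seeing the data. That ratio was 1.465 without knockdown replicate 1, 2.365 without replicate 2 and 2.619 without replicate 3. On TMM-scaled CPM the ratio was 1.615. Of the members, 2 reversed their sign: Lyz1 (log2 fold change 0.43) went to -0.081 without knockdown replicate 2, with a range of -0.08 to 0.74 over the libraries left out, and Itln1 (0.07) to -0.12 in limma on log2 CPM and from -0.50 to 0.41 over the libraries left out. Scaling by library size alone moved the median log2 fold change of all genes from 0.06 to 0.40, and limma on log2(FPKM + 1) and log2(FPKM + 0.1) gave 0.21 and 0.33. The other 8 members kept the sign of their log2 fold change under every alternative run. Members above the control in all 3 knockdown libraries numbered 5 on TPM or library size alone (4 on TMM-scaled CPM), and members below it 2 (3 on TMM-scaled CPM). The cause of these differences was not tested. Depth limits Pla2g2a, with 11 control counts, and the cytokine transcripts. The single control limits all comparisons.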

Other observations

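Beyond the 10 genes, other antimicrobial proteins were given by a list of 21 genes, of which 19 were tested and none passed in edgeR (5 at an unadjusted p under 0.05). Of the 19, 13 were above the control in all 3 knockdown libraries and 3 below it in all 3, beside 31.8% and 27.7% of all genes tested. The median log2 fold change was 3.50. Among the 13, S100a8, S100a9 and Saa2 had no control count, and Wfdc2, Saa1, Lcn2 and Saa3 had 2, 5, 7 and 8. These passed the filter only through the knockdown libraries, so neither the 13 nor the median can be weighed against all genes. The genes named by size were S100a8 and S100a9, the subunits of calprotectin of neutrophils, and the acute phase protein Saa2. In knockdown replicates 1, 2 and 3 there were 2090, 2283 and 35 counts of S100a8, compared to 0 in the control. Set against a floor of 3 counts in the control, the knockdown mean was at least 394-fold higher for S100a8, at least 321-fold higher for S100a9 and at least 118-fold higher for Saa2. These means rest on knockdown replicates 1 and 2, since Saa2 had 795, 535 and 4.33 counts, and without knockdown replicate 1 the bound for Saa2 was 75.7-fold. The goblet cell lectin Zg16, which had the lowest log2 fold change of the list (-0.72, SE 1.07), stood at 5861, 7973 and 9560 TPM compared to 10867 TPM.

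Retnlb, the goblet cell resistin-like protein with bactericidal activity, was picked after its values were seen. Levels were 1623, 79.4 and 0.99 TPM with the hairpin and 105 TPM without it, so that the control lay inside a range of the knockdown libraries that was wider than for any of the 10 genes.

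Alpha defensins, which Mmp7 activates, were present as 18 genes, of which 13 were tested and none passed. Their TPM summed to 10395, 34399 and 12837 with the hairpin and 13485 without it, with knockdown replicate 2 the highest as for Lyz1 and Itln1. Defa2 had 6861, 24193 and 6182 counts with the hairpin and 0 without it, and its reads cannot be told apart with certainty from those of near-identical defensins.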
